A study of Komagataella phaffii GS115 with 2 samples.

Results

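The genes described here are the 246 of 5040 listed genes of Komagataella phaffii GS115 with the highest signal in a ChIP-seq of H3K36me3. They were selected by that signal itself: their identifier begins with PAS_chr and their value is at or above the 95th percentile of all 5040 values, 164 FPKM. FPKM is the number of sequenced fragments over a gene, divided by its length and by a total of fragments. By construction 5.00% of all genes reach the threshold, and 5.01% of the 4908 genes with a PAS_chr identifier do. The other 6 genes at or above it carry other prefixes and are not counted as members. In the plots the members are called top genes.

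Komagataella phaffii is a methylotrophic yeast, long known as Pichia pastoris, and GS115 is a histidine-requiring laboratory strain of it. The study made 2 H3K36me3 ChIP libraries of 1 group, wild-type GS115 cells from shaken cultures, and gave no carbon source, growth phase or treatment. The 1 column of values used here was deposited with replicate 1 and carries no replicate number. Whether it holds that library alone or both pooled is not stated. No separate values of the second library, of input chromatin or of total H3 were used here, so no value below has a replicate error, no comparison has a test, and every spread is a spread over genes.

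H3K36me3 is the trimethylated form of a lysine in the tail of histone H3. In budding yeast it is written by the methyltransferase Set2, which travels with elongating RNA polymerase II, and it lies over transcribed gene bodies, more towards their ends than their starts. There it is read by the Rpd3S histone deacetylase complex, which keeps transcription from starting inside genes. A value over a whole gene, as here, averages over this internal profile and also holds unenriched fragments, nucleosome density and copy number.

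The members stood only a little above the rest of the genes. They ranged from 164 to 363 FPKM around a median of 172 FPKM (quartiles 167 and 180 FPKM), against a median of 138 FPKM and quartiles of 126 and 148 FPKM for all 5040 genes. Most lay close to the threshold: 104 members had under 170 FPKM and 80 had from 170 to under 180 FPKM. Another 42 had from 180 to under 200 FPKM, and 20 (8.13%) had 200 FPKM or more. Only 16 members (6.50%) reached 1.50 times the median of all genes and 2 reached 2.00 times it. The threshold cut through a continuous range of values. The members just inside it, PAS_chr3_1087 and PAS_chr3_0121, both had 163.8 FPKM, against 163.8 FPKM for PAS_chr2-1_0177 and 163.7 FPKM for PAS_chr3_0585 just outside it. Together the members held 3.08% of the fragments implied by FPKM multiplied by gene length, on 2.44% of the summed gene length.

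Members were short genes far more often than the gene set as a whole. Their median length was 584 nt, against 1197.5 nt over all genes, by the lengths of the RefSeq gene table of assembly ASM2700v1. Of the members, 100 of 246 (40.7%) were shorter than 500 nt, against 527 of all 5040 genes (10.5%). Members made up 18.98% of the genes under 500 nt, 6.20% of those from 500 to under 1000 nt and 1.87% of those of 1000 nt or more, where 4.88% of all genes are members. Among the 117 genes shorter than 300 nt, 38 (32.5%) were members. At the other end, 5 of the 1012 genes of 2000 nt or more were members. FPKM divides by length, so length is not independent of the selection. The values of short genes were spread wider on both sides than those of long genes. Genes under 500 nt were also 18.3% of the 252 genes at or below the 5th percentile. On the low side the genes from 500 to under 1000 nt were similar. Their own 5th percentile was 95.5 FPKM, against 94.6 FPKM under 500 nt and 109.5 FPKM at 1000 nt or more.

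**Figure D1:**
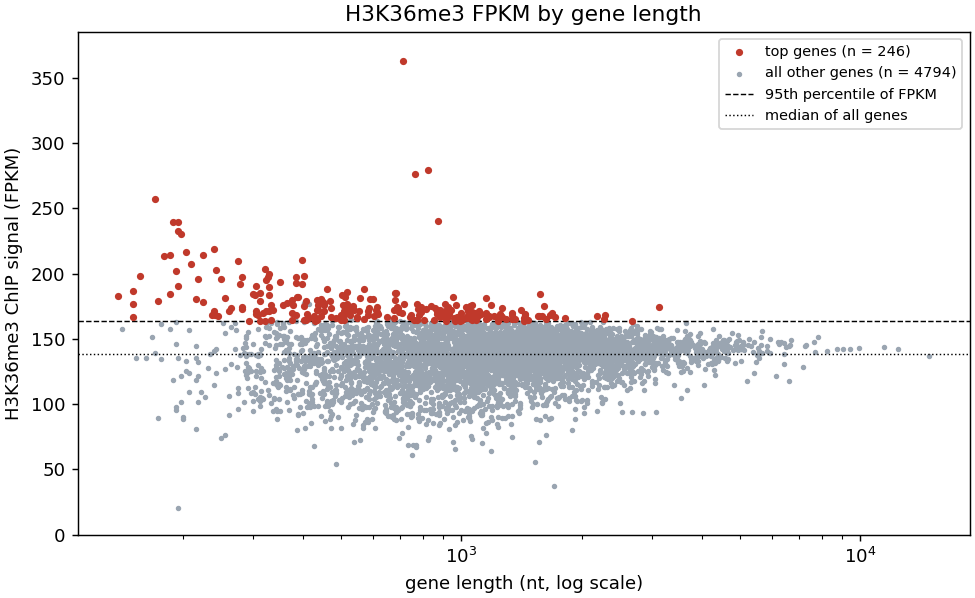
H3K36me3 ChIP signal in FPKM (vertical axis) against gene length in nt (horizontal axis, log scale); each point is 1 gene, the 246 members in red and the 4794 other genes in grey, with the 95th percentile dashed and the median of all genes dotted. Members above 200 FPKM are short genes, apart from 4 genes of 714 to 872 nt.

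In 10 classes of about equal size by length, the share of members fell off with length while the class medians hardly moved. The shortest class, 138 to 486 nt, held 99 members, 19.6% of its 504 genes. The next 4 classes, up to 1197 nt, held from 24 to 33 members each, 4.79% to 6.55%. The classes from 1198 to 1404 nt and from 1405 to 1656 nt held 12 each, and the 3 longest classes held 9 members among 1511 genes. Class medians ran only from 134 to 143 FPKM, and the longest class had the highest. What differed was the spread, in both tails. The 95th percentile of a class was 194 FPKM in the shortest and 154 FPKM in the longest. The 5th percentile was 94.7 FPKM in the shortest and 124 FPKM in the longest. Taking the top 5% within each class instead gave 258 genes. These shared 161 genes with the members, 65.4% of the members and 62.4% of the 258.

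The highest members fell into 2 kinds by length. Of the 20 highest, 16 were shorter than 500 nt, and the other 4 were 714 to 872 nt long. These 4 stood apart from every other member of at least 500 nt. PAS_chr2-2_0376 (714 nt) had 363 FPKM, PAS_chr1-1_0219 (825 nt) 279 FPKM, PAS_chr4_0107 (765 nt) 276 FPKM and PAS_chr1-1_0216 (872 nt) 240 FPKM. The next of that length, PAS_chr4_0114 (570 nt), had 188 FPKM, followed by PAS_chr4_0504 (516 nt) at 186 FPKM and PAS_chr3_0952 (681 nt) at 186 FPKM. No value lay between 188 and 240 FPKM among the 146 members of at least 500 nt. The other 6 of the 10 highest were 171 to 240 nt long, from PAS_chr1-4_0504 (171 nt) at 257 FPKM down to PAS_chr2-2_0007 (240 nt) at 219 FPKM.

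High values stopped at the gene in some of these cases, with no member on either side. In others a neighbour was a member too. PAS_chr1-1_0216 lay beside a member at 182 FPKM, PAS_chr2-1_0019 beside one at 215 FPKM and PAS_chr2-2_0007 beside one at 184 FPKM. On their other sides the values were 146, 135 and 137 FPKM. PAS_chr1-1_0219 lay between genes at 138 and 148 FPKM. PAS_chr2-2_0376 had neighbours at 132 and 135 FPKM, both a little below the median of all genes. PAS_chr4_0107 lay between genes at 115 and 140 FPKM. PAS_chr1-4_0504 lay between genes at 150 and 130 FPKM, which are 2532 and 2304 nt long. Around PAS_chr2-1_0746 (189 nt, 240 FPKM) one side was itself a member, PAS_chr2-1_0882, at 166 FPKM, and the other side had 132 FPKM. PAS_chr1-1_0240 (195 nt, 239 FPKM) had 159 and 135 FPKM beside it, and PAS_chr3_0328 (198 nt, 230 FPKM) had 160 and 128 FPKM. In each of these last 3 genes, one neighbour was above the median of all genes and the other below it.

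Long members had modest values. The 58 members of 1000 nt or more had a median of 167 FPKM and did not exceed 184 FPKM, against medians of 179 FPKM for the 100 members under 500 nt and 172 FPKM for the 88 from 500 to under 1000 nt. The highest of them, PAS_chr4_0003 (1575 nt), at 184 FPKM, was the first listed gene of chromosome 4, and the gene after it had 123 FPKM. PAS_chr1-4_0367 (1155 nt) and PAS_chr1-4_0368 (1188 nt) were adjacent, at 181 and 176 FPKM. PAS_chr3_0005 (1614 nt) and PAS_chr3_0006 (1065 nt), at places 3 and 4 from the start of chromosome 3, were adjacent too, at 175 and 176 FPKM. So 4 of the 5 highest long members formed pairs. Over all members of 1000 nt or more, 21 of 115 neighbouring places (18.3%) held a member. The longest member was PAS_chr4_0879 (3135 nt), at 174 FPKM.

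By prefix of the identifier, members were spread over all 7 PAS_chr prefixes in shares near the 5.01% that holds over these genes together. PAS_chr4 had 56 of 946 genes (5.92%), PAS_chr1-1 28 of 482 (5.81%), PAS_chr3 62 of 1178 (5.26%) and PAS_chr2-2 24 of 471 (5.10%). Lower shares were found for PAS_chr2-1, with 37 of 862 (4.29%), PAS_chr1-4, with 29 of 679 (4.27%), and PAS_chr1-3, with 10 of 290 (3.45%). The share of genes shorter than 500 nt did not follow this order. It was 12.4% in PAS_chr1-3, the prefix with the fewest members per gene, and 9.62% in PAS_chr4, which had the most. PAS_chr3 and PAS_chr4 together supplied 118 members (48.0%), against 43.3% of the PAS_chr genes.

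**Figure D2:**
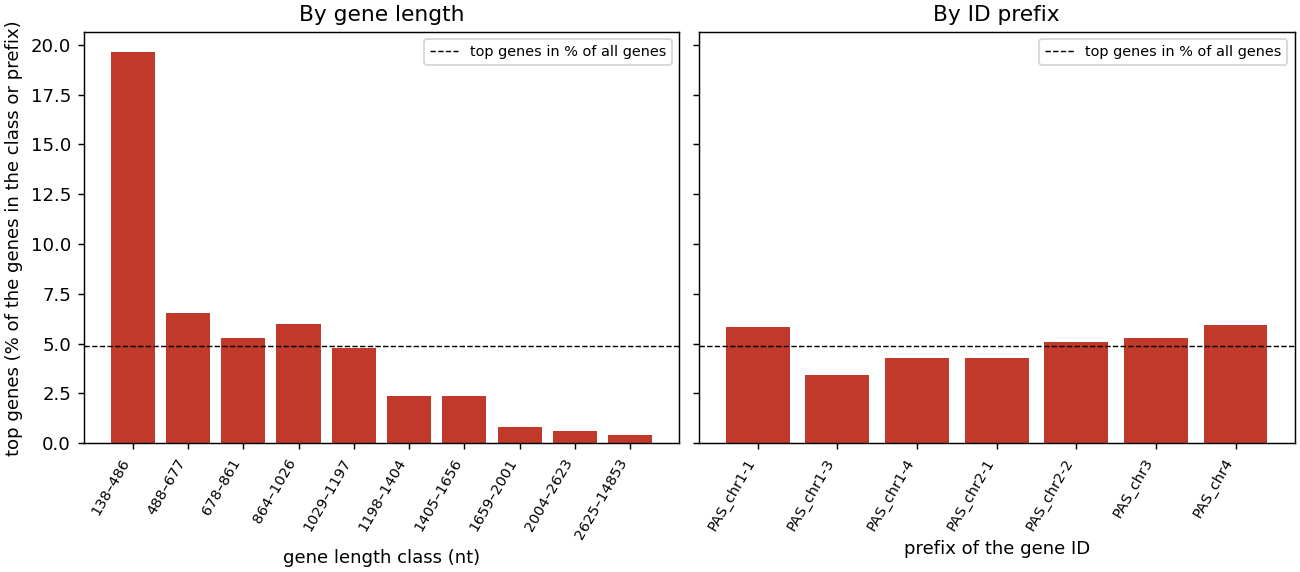
Members in percent of the genes of each length class (left, nt) and of each PAS_chr prefix (right), with the 4.88% of all genes that are members as a dashed line. The share runs from 19.6% in the shortest class to 0.40% in the longest, and from 3.45% to 5.92% over the prefixes.

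Along the chromosomes members were scattered, with 1 dense part near the start of chromosome 4. Each chromosome was divided by gene number into 4 parts of equal size, 16 in all. Apart from 2 of them, the parts held from 2.06% to 6.25% members. The last parts of chromosomes 1, 3 and 4 include genes of other prefixes, which cannot be members. The first part of chromosome 4 had 27 members among 243 genes (11.1%), and the part after it had 5 of 243 (2.06%). The last part of chromosome 3 had 24 of 299 (8.03%). Short genes were not frequent in that first part of chromosome 4, where 18 of 243 genes were under 500 nt. Its median over all genes was 143 FPKM, the highest of the 16 parts, whose medians ran from 135 FPKM upwards. This division was made after the dense part had been seen.

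The most members in any 20 consecutive genes were 7. The first window with that number lay in that first part, from PAS_chr4_0043 to PAS_chr4_0064. Windows that start at PAS_chr4_0044, PAS_chr4_0045 or PAS_chr4_0046 hold the same 7 members. They were PAS_chr4_0046 (167 FPKM), PAS_chr4_0049 (169 FPKM), PAS_chr4_0052 (174 FPKM), PAS_chr4_0055 (169 FPKM), PAS_chr4_0060 (167 FPKM), PAS_chr4_0063 (169 FPKM) and PAS_chr4_0064 (173 FPKM). All 7 were close to the threshold, 6 of them were 777 to 1683 nt long, and PAS_chr4_0060 was 471 nt long. The median over all 20 genes was 154 FPKM, and the non-members between them ran from 125 to 158 FPKM. Of the 4964 overlapping windows of 20 genes, 43.3% held no member, and the median window held 1. Some of these windows lay partly or wholly over genes of other prefixes, which cannot be members. The longest stretch with no member was also on chromosome 4: 158 genes between PAS_chr4_0210 and PAS_chr4_0350. On chromosomes 1, 2 and 3 the longest such stretches were 130, 112 and 91 genes.

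**Figure D3:**
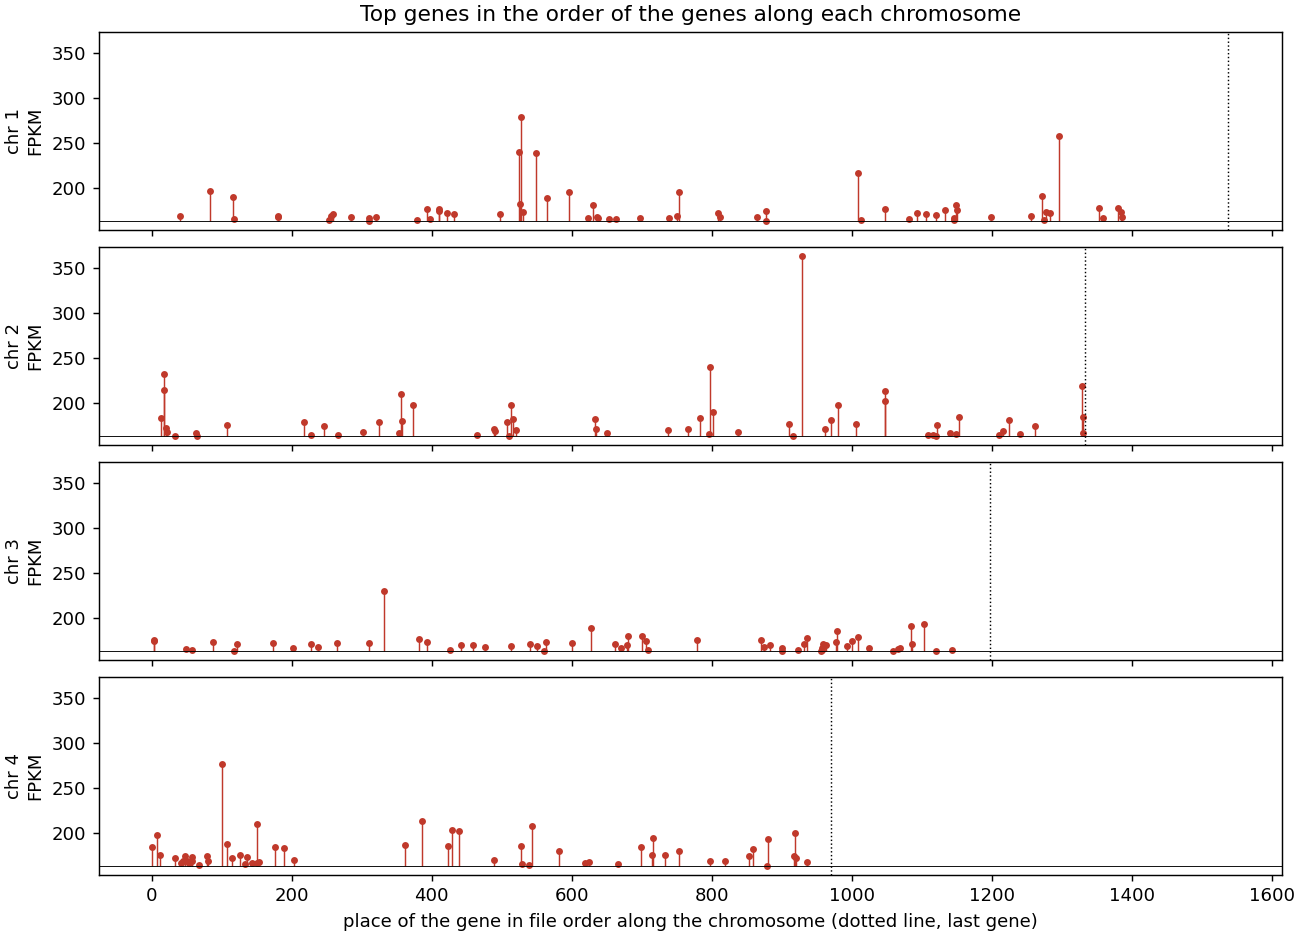
FPKM of the 246 members (vertical axis, from the 95th percentile up) at their place in file order along chromosomes 1 to 4 (horizontal axis, gene number; the dotted line marks the last gene). Members crowd over the first 200 or so genes of chromosome 4, with a stretch of 158 genes without any after that.

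Near chromosome ends members were somewhat more frequent in the outermost genes, on small numbers. The outermost 10 genes of the 8 ends held 7 members among 80 (8.75%), and the genes 11 to 25 places in held 6 of 120 (5.00%). From 26 to 50 places in, 9 of 200 genes (4.50%) were members, and further inside 224 of 4640 (4.83%). The totals near the ends include genes of other prefixes, which the rule excludes. The shares among the PAS_chr genes there are therefore higher than these. The 7 outermost came from 3 ends: PAS_chr2-2_0007, PAS_chr2-2_0006 and PAS_chr2-2_0005 at the end of chromosome 2, PAS_chr3_0005 and PAS_chr3_0006 at the start of chromosome 3, and PAS_chr4_0003 and PAS_chr4_0010 at the start of chromosome 4. The other 5 ends had none. At the last genes of chromosomes 1, 3 and 4 lie the prefixes PAS_FragB (69 genes), PAS_c131 (20 genes) and PAS_FragD (25 genes). The rule excludes these prefixes, so those ends could hold no member. The starts of chromosomes 1 and 2 carry PAS_chr identifiers. How well fragments map to repeated end sequences was not tested.

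Some members stood next to another member, but most were isolated. In file order within a prefix, 62 of 246 members (25.2%) had a member directly beside them, against 416 of the 4794 other genes (8.68%). The remaining 184 had none. The 62 formed 29 runs, of which 26 were pairs, 2 were runs of 3 genes and 1 was a run of 4. Pairs occurred in all 7 prefixes. Genes in runs were longer than isolated members, with a median of 804 nt against 540 nt.

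Both genes of a pair lie above the threshold by the rule, which limits how far they can differ. They differed by a median of 10.5 FPKM, by under 10 FPKM in 12 of 26 pairs and by over 20 FPKM in 7. The shorter gene had the higher value in 17 of the 26. In 13 pairs neither gene was under 500 nt, in 11 one was and in 2 both were. Those 2 pairs of very short genes were the highest by the lower gene of each pair. PAS_chr2-1_0018 (186 nt) and PAS_chr2-1_0019 (195 nt) had 215 and 232 FPKM, between genes at 151 and 135 FPKM. PAS_chr2-2_0266 (225 nt) and PAS_chr2-2_0265 (192 nt) had 214 and 202 FPKM, between genes at 151 and 147 FPKM.

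Other pairs stood out by their setting. PAS_chr1-4_0364 and PAS_chr1-4_0365, at 165 and 168 FPKM, were followed by 1 gene at 111 FPKM, then by the pair PAS_chr1-4_0367 and PAS_chr1-4_0368 at 181 and 176 FPKM, then by a gene of 174 nt at 89.3 FPKM. Members and low genes thus alternated within 6 genes. PAS_chr1-1_0216 and PAS_chr1-1_0217 had 240 and 182 FPKM, the next gene, PAS_chr1-1_0218, had 138 FPKM, and PAS_chr1-1_0219 had 279 FPKM. This stretch of 4 genes held 2 of the 4 members of at least 500 nt that exceeded 200 FPKM. A further member, PAS_chr1-1_0223 (510 nt, 174 FPKM), lay 3 listed genes after PAS_chr1-1_0219.

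The 3 longer runs differed in shape. The run of 4 on chromosome 3 was flat and held no short gene. PAS_chr3_0930 (2682 nt), PAS_chr3_0931 (1632 nt), PAS_chr3_0932 (1098 nt) and PAS_chr3_1241 (893 nt) had 164, 165, 167 and 171 FPKM, between genes at 141 and 147 FPKM. The run of 3 near the end of chromosome 2 had its highest value in its shortest gene. PAS_chr2-2_0007 (240 nt), PAS_chr2-2_0006 (300 nt) and PAS_chr2-2_0005 (2181 nt) had 219, 184 and 167 FPKM, between genes at 137 and 126 FPKM. The run of 3 on chromosome 4 peaked in the middle. PAS_chr4_0879 (3135 nt), PAS_chr4_0880 (330 nt) and PAS_chr4_0881 (537 nt) had 174, 199 and 173 FPKM, between genes at 102 and 121 FPKM.

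**Figure D4:**
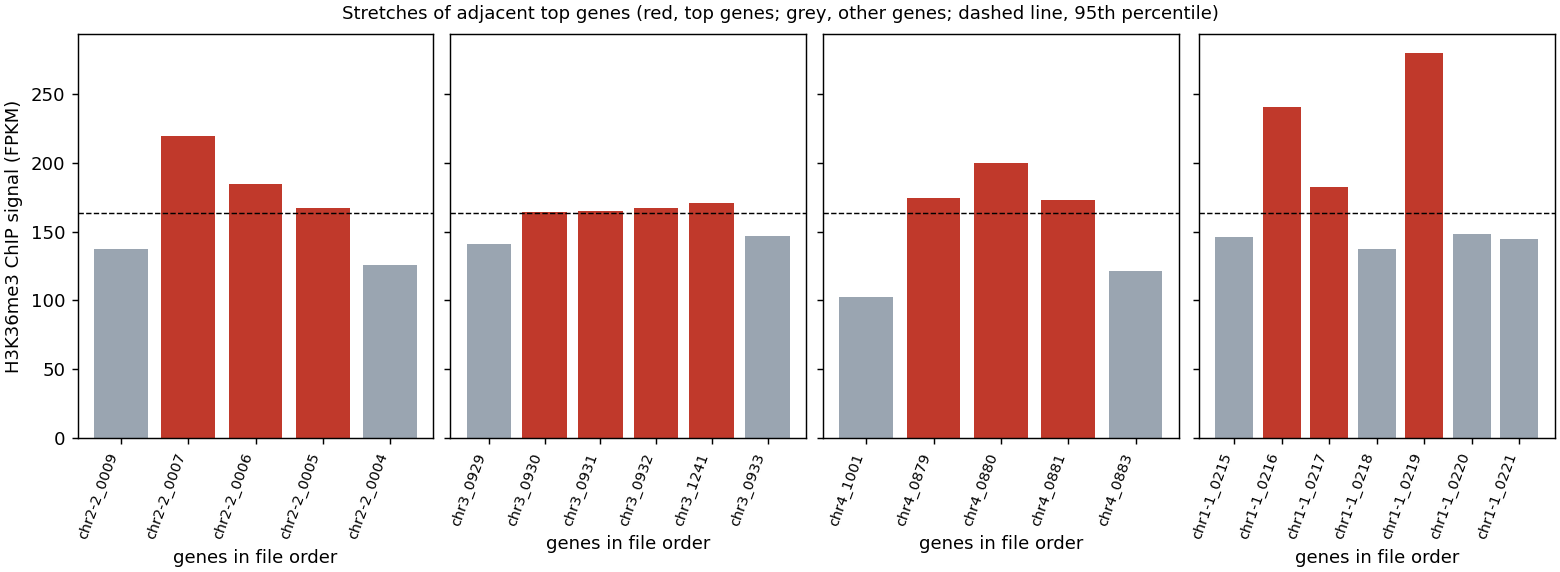
FPKM of each gene (vertical axis) in file order (horizontal axis) for the 3 runs of 3 or more adjacent members and for the stretch around PAS_chr1-1_0216; members are red, other genes grey, and the dashed line is the 95th percentile. The run on chromosome 3 is level at 164 to 171 FPKM, while the highest genes of the other stretches have 199 to 279 FPKM.

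Genes directly beside a member had higher values than genes beside the other genes, and this was small beyond the first place. The 491 neighbours of members had a median of 145 FPKM (quartiles 133 and 155 FPKM), against 138 FPKM (126 and 147 FPKM) for the 9567 neighbours of other genes. On the log2(FPKM + 1) scale the neighbours' median was 0.063 above that of all genes. Part of this is members beside members: 66 of the 491 neighbouring places (13.4%) held one, against 425 of 9567 (4.44%). With members left out of both, the medians were 142 FPKM beside members and 137 FPKM beside other genes. At 2 places the medians were 140 and 138 FPKM, and at 4 places 138 and 138 FPKM.

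Single steps in the order did not fall off smoothly. At 2, 4 and 6 places from a member, 5.30%, 6.16% and 4.95% of genes were members, against 4.87%, 4.81% and 4.87% from other genes. At 3 and 5 places the shares were 8.998% and 8.64%, against 4.67% and 4.68%. These shares rest on 24 to 44 places each, a pair being counted from both of its genes.

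**Figure D5:**
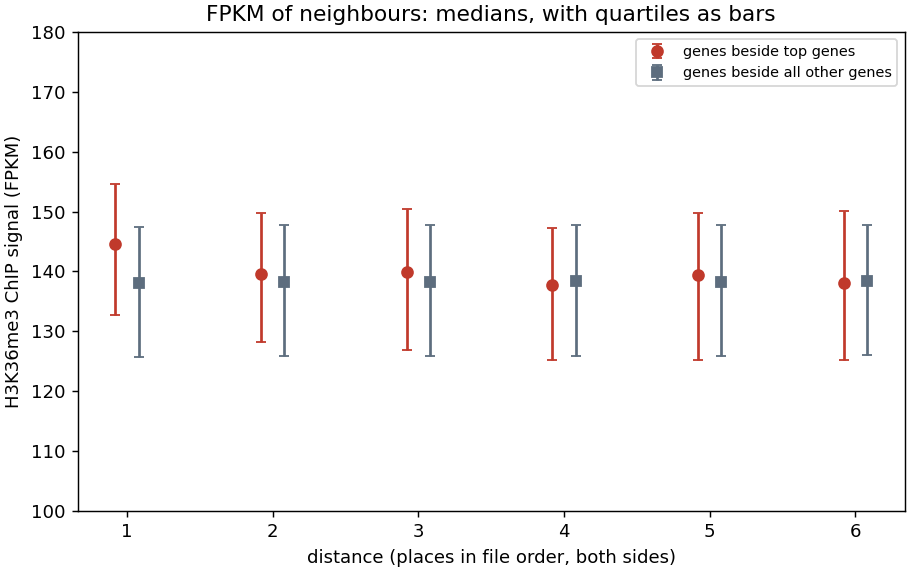
Median FPKM (points) with quartiles (bars) of the genes 1 to 6 places away on both sides, for members in red and for all other genes in grey; the vertical axis starts at 100 FPKM. Only at 1 place do the medians differ by more than 2 FPKM, 145 against 138 FPKM, with quartile ranges that overlap.

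The higher neighbours were found beside members of every length. The neighbours of members under 500 nt had a median of 144 FPKM, against 136 FPKM beside other genes of that length. For members of 500 to under 1000 nt the medians were 144 and 138 FPKM, and for members of 1000 nt or more 146 and 138 FPKM. The share of neighbours that were themselves members was 10.0%, 14.2% and 18.3% in these 3 classes, in that order. Of the 245 members with a gene on both sides, 212 exceeded both neighbours, a number that the selection by FPKM largely sets. Both neighbours were above the median of all genes for 105 members (42.9%), against 24.3% of other genes, and both were below it for 27 members (11.02%), against 25.9%.

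Distance in the gene table showed no more than a weak order. Where the space between the genes was under 100 nt, neighbours of members had a median of 146 FPKM, against 140 FPKM beside other genes. From 100 to under 300 nt the medians were 144 and 136 FPKM, from 300 to under 1000 nt 142 and 139 FPKM, and at 1000 nt or more 147 and 140 FPKM. By the median, members had slightly more space around them, 234 nt to the next gene on the chromosome, against 213 nt for other genes. The spaces were more spread around members, with quartiles of 97 and 474 nt, against 109 and 412 nt. Counted within a chromosome, across prefixes, annotations overlapped at 6 of 491 neighbouring places of members (1.22%), against 144 of 9581 of other genes (1.50%), and at 0 of those 6 places was the neighbour a member. Within the 26 pairs the space ran from 17 to 1501 nt. Fragments were sheared to a size near these distances, per the labels' protocols, and whether some were counted for both neighbours was not tested.

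Members were also counted among genes that stand out in the annotation, where 4.88% of all genes are members. Of 428 genes whose number differs by more than 20 from both neighbours' numbers, as genes added later to a series do, 22 were members (5.14%). Such genes still took part in runs, among them PAS_chr3_1241, PAS_chr3_1234, PAS_chr2-1_0882, PAS_chr4_0918 and PAS_chr4_0982. Among the 393 genes with lengths that 3 does not divide, 15 were members (3.82%). Such lengths made up 6.10% of the members and 7.80% of all genes.

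The 6 genes at or above the threshold under other prefixes had high values by the same cut as the members. They were 2 of the 20 genes of PAS_c131, 3 of the 69 of PAS_FragB, 1 of the 18 of PAS_c121 and 0 of the 25 of PAS_FragD. PAS_c131_0011 (402 nt) and PAS_c131_0012 (414 nt) formed a further adjacent pair on chromosome 3, at 178 and 176 FPKM. PAS_FragB_0011, PAS_FragB_0036 and PAS_FragB_0009, on chromosome 1, had 176, 172 and 164 FPKM, and PAS_c121_0017 had 166 FPKM. All 6 were between 306 and 528 nt long, below the members' median of 584 nt.

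Functions of the members are not analysed here. The deposited table and the gene table give each of the 246 genes as a protein-coding locus tag with no product, gene name or sequence, so no role is assigned to any of them.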

How the data were processed

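The FPKM values, 1 for each of 5040 genes, were calculated and deposited by the authors; the header names the mark and the unit but no replicate. Per the submitters' processing notes, the tools included Bowtie2, MACS2, deepTools, SAMtools, Trimmomatic 0.39 and FastQC 0.12.1, whose roles are not listed. The sources used here do not say which tool counted fragments, or over which build and annotation. Depth is unknown, so no counting interval is given.

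All 5040 identifiers matched a locus tag of the RefSeq gene table (ASM2700v1), in the same order. Chromosome, length, space between genes and order come from it. Its lengths multiplied by the deposited FPKM summed to 100.1% of the total that scaling to these genes gives. No coordinate is given because the authors' build is not named.

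The 95th percentile was taken by linear interpolation. Neighbours and runs were counted within a prefix, and checked on simulated data: 11 of 11 planted runs were recovered over 5040 genes. The log2 scale used a pseudocount of 1 FPKM. No test was made. The rule and the members were chosen with earlier results of these data known. Genes were named by rank (10 highest, 5 highest of at least 1000 nt), by runs of 3 or more, by distance to the threshold and with their neighbours. The pairs described, the 4 parts of each chromosome, windows, distance classes, chromosome ends, the genes following the 4 highest of at least 500 nt, and genes of other prefixes were chosen after the values were seen. Planned lists by product, orientation and sequence features could not be run. Alternatives were other percentiles, a minimum length, ranking within length classes, a 1 FPKM filter, other neighbour definitions and pseudocounts. The work was done in Python 3.11.15 (pandas 2.3.3, scipy 1.17.1, numpy 2.4.6, matplotlib 3.10.9).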

Additional observations from a re-analysis of the deposited data

How the results depend on the processing

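Taking the 90th percentile gave 494 genes, 27.5% of them under 500 nt, 34.2% with a member directly beside them and 75 runs of 2 or more; the top 2.5% gave 122 genes, 57.4%, 18.9% and 11 runs. The number of genes is set by the percentile taken. With a higher percentile the share under 500 nt rose, with 40.7% at the 95th. The share with a member beside them fell, with 25.2% at the 95th. A higher percentile also leaves fewer members that can be a neighbour. The share for other genes, 8.68% at the 95th percentile, was not taken at the other percentiles. The fall therefore does not say whether members lay more or less often together than other genes. Why the share under 500 nt changed was not tested. Ranking within length classes lowered the share under 500 nt to 10.5%, by construction. Restricting to genes of at least 500 nt and taking the percentile over these gave 222 genes and a share with a member beside them of 19.4%. Short members were lost and longer genes entered in that setting, and the cause of the lower share was not tested. The other 41 of 51 alternative values stayed within 1.5 times the main count or inside the 95% binomial interval over genes. Among them the neighbours' median ran from 143 to 146 FPKM, and with length classes 27.1% of genes had a member beside them. That interval treats genes as independent, though a pair counts from both of its genes and the settings share many genes. It is a yardstick for the settings and no measure of error. The 1 FPKM filter removed 0 genes and tests nothing. No paired analysis was possible because there is a single column of values, and no replicate could be left out. The part of counting error in the values of short genes was not tested, since no depth is known.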
